A study of Mus musculus with 3 samples.

Results

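Cells carrying transcripts of the mitotic markers Mki67, Top2a, Ube2c and Birc5 were examined in 3 libraries of mouse small intestinal organoids, named WT, LApc and LApcL after their genotype. A barcode was eligible when its sequence occurred in only 1 of the 3 libraries, when it held at least 10000 unique molecular identifiers (UMIs, each standing for a captured transcript), and when at most 20% of these came from the 13 mitochondrial genes. Each eligible cell was thinned at random to 10000 UMIs, and cells in which the 4 markers together kept at least 4 UMIs were taken as mitotic-marker cells. Of 34185 barcodes, 5300 were eligible and 1321 were mitotic-marker cells, namely 206 of 1208 in WT, 428 of 2161 in LApc and 687 of 1931 in LApcL. The 2589 eligible cells with 0 marker UMIs (693, 1239 and 657), called marker-zero cells here, served as the comparison within each library. The other 1390 eligible cells held 1 to 3 marker UMIs and entered neither group.

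By the labels of all 3 libraries, the organoids came from C57BL/6 mice given 2 doses of tamoxifen (2 mg) at an age of 7 to 8 weeks. WT is labelled without any engineered allele, LApc was Lgr5-CreERT2;Apc fl/fl (the driver is Lgr5-EGFP-IRES-CreERT2 in full), and LApcL carried both of these and, in addition, Lef1 fl/fl, so that both Apc genotypes share the Cre driver and the Apc allele. Tissue was taken 21 days after tamoxifen for WT and LApcL and 29 days after it for LApc, and the organoids were dissociated at passage 3, day 6. In this model the Cre is active where Lgr5 is expressed, that is, in crypt base stem cells. How many mice or lines each library holds is not given in the sources used here. There was 1 library per genotype, so genotype, time after tamoxifen and library cannot be told apart. No test between genotypes was possible and no p-value is given. Every interval below covers counting error only.

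Mki67 encodes a protein that coats mitotic chromosomes, Top2a the topoisomerase that untangles replicated DNA, Ube2c the ubiquitin-conjugating enzyme of the anaphase-promoting complex, and Birc5 survivin, a subunit of the chromosomal passenger complex. Their transcripts build up while DNA is copied and peak in G2 and mitosis. In the small intestine such cells are crypt base stem cells and their transit-amplifying daughters, whereas enterocytes, goblet cells, Paneth cells and enteroendocrine cells have left the cycle. Wnt signalling maintains the dividing crypt compartment, Apc is part of the complex that degrades its effector beta-catenin, and Lef1 is one of the Tcf and Lef factors through which beta-catenin acts on genes. Many late-cycle genes are read from promoters that hold a CHR element (TTTGAA), to which the DREAM and MuvB complexes bind, together with CCAAT boxes bound by NF-Y, while E2F sites (TTTGGCG or TTTCGCG) are typical of genes of DNA synthesis.

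The 4 genes that chose the cells lie on 3 chromosomes of mm10, Mki67 at chr7:135689784-135716361 (minus strand), Top2a at chr11:98992943-99024189 (minus), Ube2c at chr2:164769898-164778822 (plus) and Birc5 at chr11:117849251-117855743 (plus). These positions are from GENCODE. The windows below end at the RefSeq start instead, so those of Ube2c, Ccnb1 and Cdc20 reach into the gene as GENCODE gives it, those of Mki67 and Birc5 end short of it, and for Top2a both starts coincide. The 250 bases before each RefSeq start are printed 5′ to 3′ because they show what the rule's genes share and where they differ, beside those of Ccnb1 (cyclin B1) and Cdc20 (an activator of the anaphase-promoting complex), which the rule did not use. They are RefSeq sequences of GRCm38.p6, on the gene's own strand, and capitals mark CHR and CCAAT matches on either strand (TTTGAA or its reverse TTCAAA for the former and CCAAT or its reverse ATTGG for the latter).
Mki67: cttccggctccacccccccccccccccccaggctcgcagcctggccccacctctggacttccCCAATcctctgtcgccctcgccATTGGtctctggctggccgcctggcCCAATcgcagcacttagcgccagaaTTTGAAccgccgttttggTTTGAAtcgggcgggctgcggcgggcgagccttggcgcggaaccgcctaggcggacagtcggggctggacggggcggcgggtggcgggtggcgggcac
Top2a: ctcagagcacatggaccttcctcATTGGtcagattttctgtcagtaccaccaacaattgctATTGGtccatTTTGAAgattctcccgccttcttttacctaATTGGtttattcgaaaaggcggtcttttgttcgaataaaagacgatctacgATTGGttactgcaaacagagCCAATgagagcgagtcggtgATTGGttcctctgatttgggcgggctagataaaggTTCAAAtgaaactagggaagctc
Ube2c: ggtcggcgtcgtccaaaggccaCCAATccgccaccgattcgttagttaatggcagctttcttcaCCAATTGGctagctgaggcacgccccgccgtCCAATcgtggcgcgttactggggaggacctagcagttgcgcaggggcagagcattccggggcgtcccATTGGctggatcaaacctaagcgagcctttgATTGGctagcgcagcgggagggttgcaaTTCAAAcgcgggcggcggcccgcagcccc
Birc5: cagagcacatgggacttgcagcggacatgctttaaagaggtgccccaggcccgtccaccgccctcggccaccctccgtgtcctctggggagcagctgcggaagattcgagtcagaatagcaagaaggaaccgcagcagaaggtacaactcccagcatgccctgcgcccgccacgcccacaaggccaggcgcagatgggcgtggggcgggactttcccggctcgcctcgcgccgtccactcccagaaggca
Ccnb1: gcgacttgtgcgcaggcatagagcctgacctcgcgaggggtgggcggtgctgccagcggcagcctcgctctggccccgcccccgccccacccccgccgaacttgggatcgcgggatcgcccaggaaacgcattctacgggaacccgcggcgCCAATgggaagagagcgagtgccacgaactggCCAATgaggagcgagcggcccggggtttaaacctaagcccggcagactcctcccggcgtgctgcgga
Cdc20: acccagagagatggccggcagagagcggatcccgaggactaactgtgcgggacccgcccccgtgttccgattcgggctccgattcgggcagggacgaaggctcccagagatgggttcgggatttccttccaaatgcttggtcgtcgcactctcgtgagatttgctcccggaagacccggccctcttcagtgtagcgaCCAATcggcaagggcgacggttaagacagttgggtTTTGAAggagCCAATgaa

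The windows were chr7:135716380-135716629 (minus) for Mki67, chr11:99024190-99024439 (minus) for Top2a, chr2:164769679-164769928 (plus) for Ube2c, chr11:117848987-117849236 (plus) for Birc5, chr13:100786487-100786736 (minus) for Ccnb1 and chr4:118437344-118437593 (minus) for Cdc20. Mki67 held 2 CHR and 3 CCAAT matches, Top2a 2 and 6, Ube2c 1 and 6, and Cdc20 1 and 2. Ccnb1 held 0 CHR and 2 CCAAT matches, and Birc5 held neither motif in this window. In Ube2c 2 CCAAT matches on opposite strands overlap. None of the 6 windows held an E2F match. Over all 32851 promoter windows of this length in the RefSeq table, 16% held a CHR, 33.8% a CCAAT box, 1.93% an E2F match and 5.55% both CHR and CCAAT. For the list of G2 and M genes, 173 of 218 symbols were found in the table, with 201 windows, and the shares were 27.9%, 60.7%, 7.46% and 20.4%. For the S phase list (90 of 115 symbols, 105 windows) they were 15.2%, 53.3%, 16.2% and 9.52%. A match is a description of letters and no binding was measured.

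The mitotic-marker share of eligible cells was 17.1% in WT (95% Clopper-Pearson interval 15 to 19.3), 19.8% in LApc (18.1 to 21.5) and 35.6% in LApcL (33.4 to 37.8). The share was thus highest in LApcL, with a log2 ratio of 0.85 to LApc (0.70 to 0.99), while LApc and WT were close, with a log2 ratio of 0.22 (-0.00 to 0.43). The paper, in contrast, reports that LApc and LApcL organoids had similar proportions of transit-amplifying or proliferating cells and of Ki67-positive cells. The share here covers deep cells alone and rests on another rule, so the measures are unlike. The cause of the difference was not tested. Marker-zero cells made up 57.4%, 57.3% and 34.0%, and cells with 1 to 3 marker UMIs 25.6%, 22.9% and 30.4%. Mitotic-marker cells had a median of 12, 11 and 11 marker UMIs in the order WT, LApc, LApcL, with highest values of 37, 64 and 82. Just inside the threshold, 20, 39 and 71 cells held exactly 4 UMIs, and just outside it 27, 69 and 110 cells held exactly 3. The share of LApcL over LApc was higher under every alternative rule for choosing cells that was run, between 0.56 and 0.92 on the log2 scale, but the small difference of LApc from WT took either sign. In particular it was -0.19 with a mitochondrial limit of 10% (-0.47 to 0.08, which takes in 0) and 0.50 with Mki67 and Top2a alone (0.28 to 0.72). With cells of at least 10 goblet, Paneth, enteroendocrine or LApc-restricted UMIs left out it was 0.54 (0.32 to 0.76). In that setting the ratio of LApcL to LApc was about as large, at 0.56 (0.40 to 0.72).

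Library totals were 87185429 UMIs in 11411 barcodes for WT, 118867221 in 10706 for LApc and 112057783 in 12068 for LApcL, and 3195 barcode sequences occurred in all 3 libraries. Of the barcodes with at least 10000 UMIs (1645, 2467 and 2197), 10, 11 and 7 were shared between libraries and left out, and 26.0%, 12% and 11.9% were over the mitochondrial limit. Before thinning, the median depth of mitotic-marker cells was above that of marker-zero cells in each library, at 44892 against 37050 UMIs in WT (first quartile 23696 against 30945, the other way round), 50108 against 31014 in LApc and 44689 against 27406 in LApcL. At equal depth after thinning, the median number of genes detected was 2878 against 2650, 3180 against 3183 and 3231 against 3278. A high doublet score by Scrublet was given to 17.0%, 17.5% and 22.0% of mitotic-marker cells and to 8.66%, 7.51% and 10.2% of marker-zero cells. Without those cells the shares were 15.6%, 18.4% and 33.0%. The part of depth and doublets in the results below was not tested.

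All 4 markers contributed to the choice in each library. Mki67 summed to 392 CPM in WT (counts per 1000000 thinned UMIs, over all mitotic-marker cells), 416 in LApc and 456 in LApcL and was detected in 88.3%, 91.4% and 91.4% of the cells. Top2a stood at 282, 449 and 444 CPM and was detected in 71.8%, 86.9% and 84.0%, lowest in WT. Ube2c stood at 402, 429 and 390 CPM, detected in 91.7%, 86.4% and 82.1%, and Birc5 at 235, 220 and 195 CPM, detected in 84.5%, 77.8% and 77.0%. Both were thus most often detected in WT. All 4 were present together in 105 WT (51.0%), 243 LApc (56.8%) and 361 LApcL cells (52.5%), and only 2, 5 and 15 cells were chosen on a single gene. These values chose the cells and are a description.

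The name mitotic was checked against 14 mitosis genes that the rule did not use. Their summed level was 1091 CPM in mitotic-marker and 19.0 in marker-zero cells of WT, 1714 and 32.5 in LApc, and 1620 and 43.7 in LApcL. The sums were thus 57.3-fold (48.0 to 68.8), 52.7-fold (47.6 to 58.4) and 37.1-fold (33.0 to 41.8) higher. Ccnb1 stood at 81.1 against 1.44 CPM in WT, 105 against 2.1 in LApc and 96.4 against 1.07 in LApcL, and Cdc20 at 89.3 against 1.30, 122 against 2.26 and 102 against 3.20. At the level of single cells, 79.6%, 81.1% and 76.3% of the mitotic-marker cells held at least 5 UMIs of these 14 genes, and 6, 1 and 21 held 0. All 14 genes were higher in the marker-chosen cells of all 3 libraries.

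The same cells were also rich in transcripts of DNA synthesis, so the rule captured more than mitosis. The summed level of 14 replication genes, such as Mcm3, a subunit of the replicative helicase, and Tyms, which makes thymidylate, was 665 against 165 CPM in WT, 1515 against 377 in LApc and 1529 against 556 in LApcL. Replication-dependent histone transcripts, counted here only where they were captured by the poly(A)-primed protocol, summed to 4315 against 1773, 2775 against 1056 and 3656 against 725 CPM. More UMIs of the 14 mitosis genes than of the 14 replication genes were held by 142 WT (68.9%), 220 LApc (51.4%) and 325 LApcL cells (47.3%). The reverse held for 54 WT (26.2%), 200 LApc (46.7%) and 345 LApcL cells (50.2%), and the rest held equal numbers. Thus the 2 kinds were close in number in LApc and LApcL, and by this count the WT cells leaned to mitosis. For this reason they are called mitotic-marker cells and not mitotic cells. The split takes no account of a baseline, and the replication level of marker-zero cells also differed between libraries (165, 377 and 556 CPM). The part of that baseline in the split was not tested. By the mitosis-leaning cells alone, the share of eligible cells was 11.8% in WT, 10.2% in LApc and 16.8% in LApcL, an alternative added after the data were seen.

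**Figure D1:**
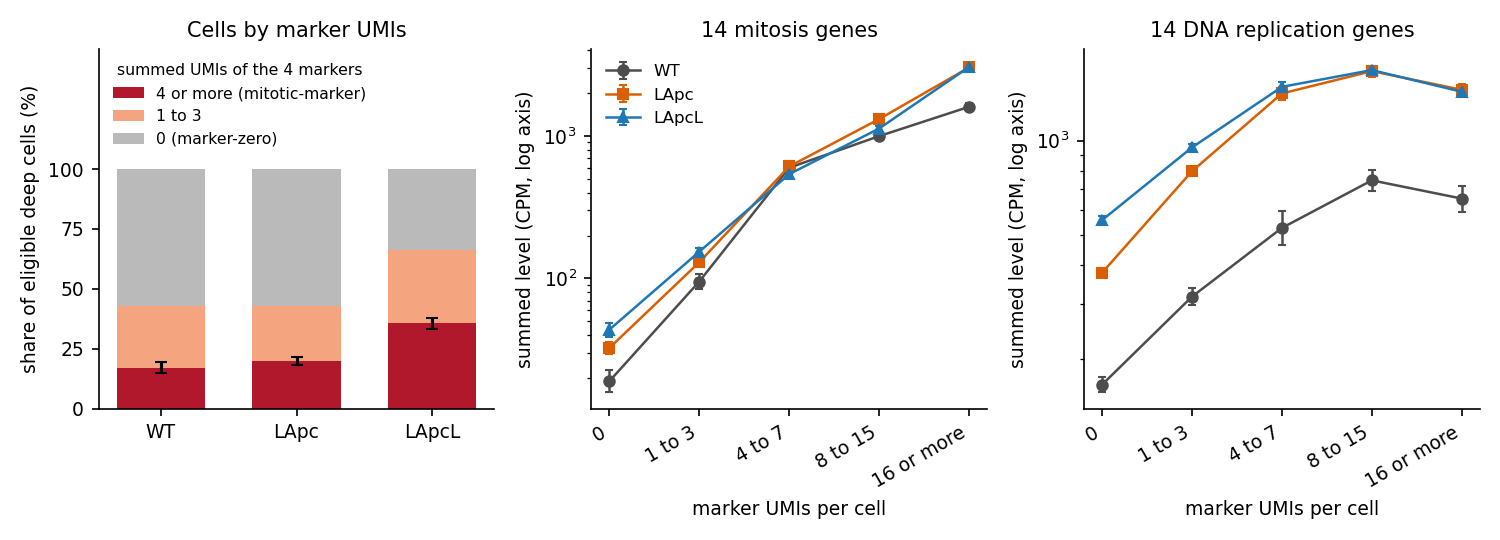
Left, share of eligible cells (%) with at least 4, with 1 to 3 and with 0 UMIs of the 4 markers in each library (error bars, 95% Clopper-Pearson interval of the mitotic-marker share). Middle and right, summed CPM (log axis) of 14 mitosis and 14 DNA replication genes outside the rule by number of marker UMIs, with Poisson intervals: mitosis genes climbed to 1600 (WT), 3019 (LApc) and 3044 CPM (LApcL) at 16 or more marker UMIs, while replication genes were highest at 8 to 15.

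Graded by marker UMIs, both programmes were already above the marker-zero level below the threshold. The 14 mitosis genes summed in WT to 19.0, 95.1, 598, 996 and 1600 CPM in cells with 0, 1 to 3, 4 to 7, 8 to 15 and at least 16 marker UMIs. In LApc they summed to 32.5, 130, 610, 1312 and 3019 CPM, and in LApcL to 43.7, 154, 539, 1126 and 3044 CPM. They rose at each step in each library. The 14 replication genes went from 165 to 316, 525, 746 and 652 CPM in WT, from 377 to 798, 1417, 1671 and 1456 in LApc, and from 556 to 951, 1488, 1684 and 1435 in LApcL, with the highest value in each library at 8 to 15 marker UMIs.

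Genes outside the cycle lists, called non-cycle genes here, were then set against marker-zero cells of the same library. The lists are not complete, so genes tied to DNA synthesis or to the centrosome, such as Dtymk and Pcnt, remained among them. Because the cells were chosen on this very contrast, the values are a description without a test. A gene was counted as different when the log2 ratio of (CPM + 1) was at least 1 in size, among non-cycle genes with at least 50 CPM in either group. By this count 159 genes were higher and 236 lower in WT, which is 5.68% and 8.43% of 2798 genes. In LApc 69 were higher and 227 lower, 2.07% and 6.81% of 3332, and in LApcL 29 were higher and 56 lower, 0.885% and 1.71% of 3275. The numbers rest on the settings. With Ube2c and Birc5 alone as markers 99, 41 and 8 genes were higher, and with a minimum of 200 CPM 33, 15 and 3. The 29 of LApcL became 17 with Mki67 and Top2a alone and 16 with a pseudocount of 10 CPM. Of 2207 genes measured in each library, 13 (0.589%) were higher by this fold in all 3 and 4 (0.181%) were lower in all 3. The 4 were Reg4, Defa24, Tff3 and Spink4, products of secretory cells. With cells of at least 10 UMIs of the goblet, Paneth, enteroendocrine or LApc-restricted list left out, Reg4 stayed past the fold in WT (-2.44) and LApc (-2.62) but not in LApcL (-0.03), the other three were under the fold in every library, and Spink4 in WT (0.13) and Tff3 in LApc (0.26) turned positive. With no fold required, 820 genes (37.2%) were higher and 568 (25.7%) lower in all 3 libraries. The median ratio over all genes was near 0 in each library (0.05, -0.05 and -0.05).

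The genes that stood highest in all 3 libraries, ranked by their smallest ratio, had varied known roles. Nucks1, a chromatin protein phosphorylated by cyclin-dependent kinases (chr1:131910534-131936321), stood at 314 against 56.6 CPM in WT, 533 against 189 in LApc and 546 against 212 in LApcL. This was 5.55-fold (4.89 to 6.31), 2.82-fold (2.66 to 2.99) and 2.57-fold (2.42 to 2.74), most in WT, where the marker-zero level was lowest. Lsm3, a subunit of the ring that binds U6 small nuclear RNA (chr6:91515928-91522625), stood at 73.3 against 15.3, 96.5 against 29.6 and 94.5 against 27.9 CPM, or 4.79-fold (3.71 to 6.20), 3.26-fold (2.82 to 3.76) and 3.39-fold (2.87 to 4.02). Exosc8, a subunit of the RNA exosome, stood at 73.8 against 14.7, 80.1 against 22.7 and 74.8 against 27.1 CPM. Its level in mitotic-marker cells was close to equal in the 3 genotypes. Tcof1, which the nucleolus needs to transcribe ribosomal RNA genes, stood at 54.4 against 11.4, 110 against 27.3 and 114 against 38.4 CPM. Ranbp1, a partner of the transport GTPase Ran, stood at 369 against 93.4, 588 against 240 and 631 against 303 CPM.

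Dtymk, thymidylate kinase, stood at 138 against 32.3 CPM in WT, 198 against 63.1 in LApc and 184 against 78.4 in LApcL, and Dctpp1, which removes unwanted deoxycytidine triphosphates, at 142 against 47.3, 178 against 67.5 and 179 against 76.3. Both supply or clean the nucleotide pool used for DNA. Lsm5, a ring partner of Lsm3, and Ddx39, a helicase of messenger RNA export, were higher in the mitotic-marker cells of every library. Lsm5 stood at 126 against 38.4 CPM in WT and at 130 against 58.1 in each Apc genotype, and Ddx39 at 124 against 52.4 in WT, 141 against 65.4 in LApc and 136 against 63.8 in LApcL. Larp7, which holds the 7SK RNA, Nelfe, a subunit of the negative elongation factor, and AI506816, whose function is left out here, complete the 12 genes with the highest smallest ratio. Larp7 stood at 56.8 against 16.3 CPM in WT, 70.3 against 31.7 in LApc and 64.5 against 28.8 in LApcL, and Nelfe at 63.6 against 29.3, 67.1 against 29.7 and 76.0 against 31.1. In the mitotic-marker cells, these 12 genes differed between LApcL and LApc by at most 0.18 on the log2 scale. Promoter windows were found for 9 of the 12, with 9 windows, of which 22.2% held a CHR, 66.7% a CCAAT box and 11.1% an E2F match. Over all promoter windows the shares were 16%, 33.8% and 1.93%. For the 12 genes that stood lowest in all 3 libraries, 7 were found, with 12 windows and shares of 0%, 50% and 0%. These windows are few, and the shares are a description.

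Other genes were named for their ratio in a single library. Slfn9, a Schlafen family member, stood at 35.0 against 6.35 CPM in WT, 55.6 against 6.70 in LApc and 71.0 against 17.8 in LApcL, the highest ratio in both Apc genotypes among non-cycle genes of at least 50 CPM in either group (8.30-fold and 3.99-fold). Myb, a transcription factor of crypt progenitors, stood at 39.8 against 9.81, 70.3 against 19.5 and 90.8 against 44.3 CPM. Pcnt, the centrosome scaffold pericentrin, stood at 35.0 against 10.7, 57.5 against 15.6 and 59.1 against 24.0 CPM. All 3 were thus higher in mitotic-marker cells of each library, and the level of Myb stood in the order WT, LApc, LApcL in both groups of cells. Selenoh, a nuclear selenoprotein, stood at 36.9 against 7.5 CPM in WT and at 234 against 76.0 and 227 against 84.9 in LApc and LApcL, so that its marker-zero level in the Apc genotypes was above its mitotic-marker level in WT.

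**Figure D2:**
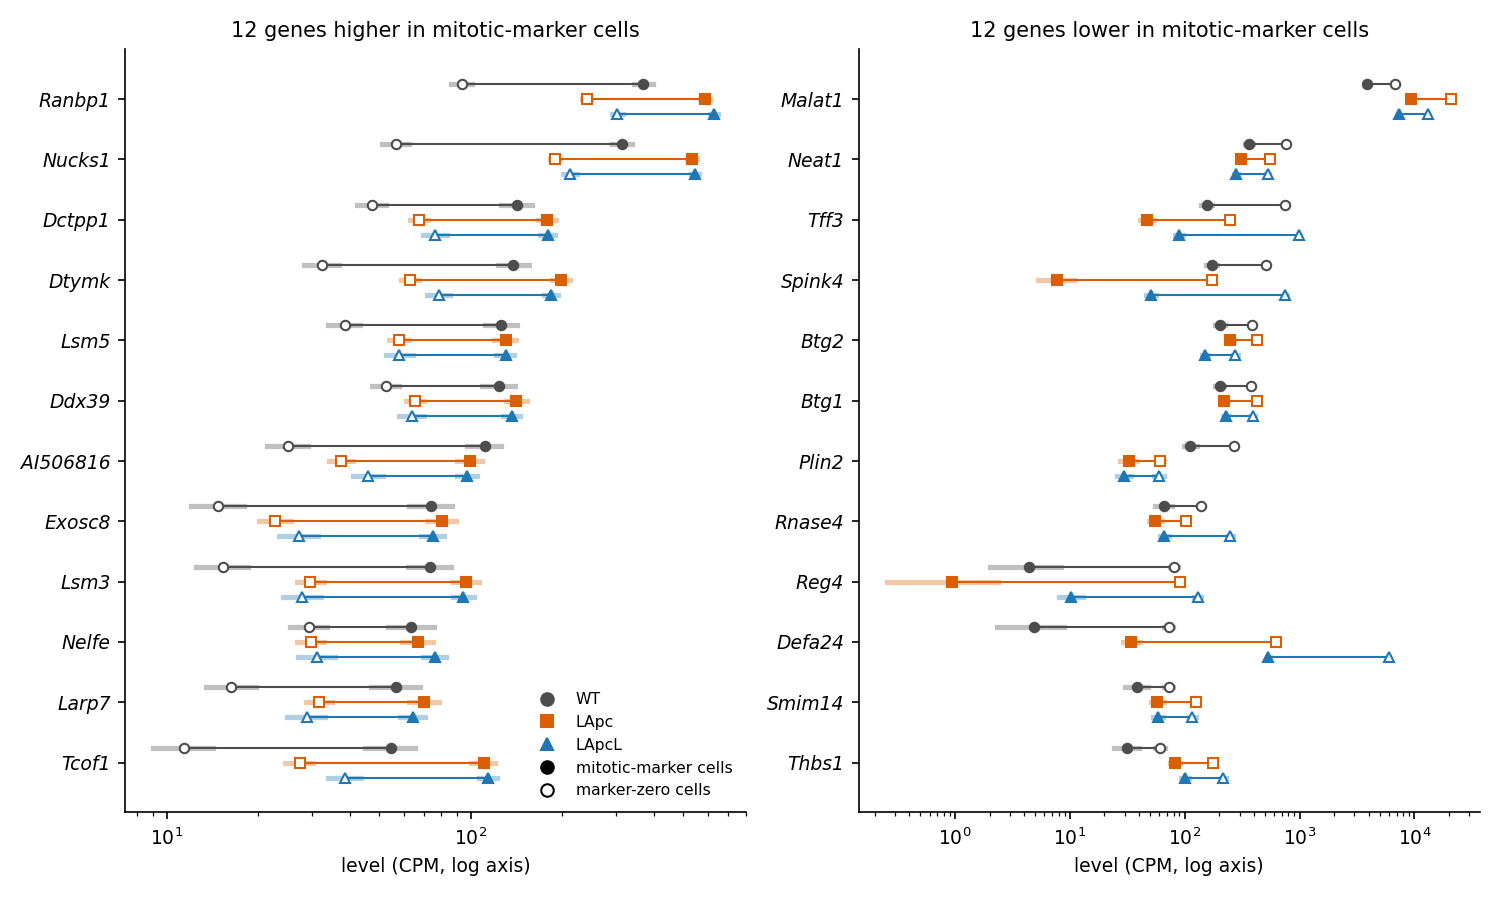
CPM (log axis) of 12 high and 12 low non-cycle genes, ranked by the weakest of their 3 library ratios, in mitotic-marker cells (filled) and marker-zero cells (open), with shaded Poisson intervals. Nucks1 stood at 314, 533 and 546 CPM in mitotic-marker cells against 56.6, 189 and 212, and Malat1 at 3879, 9354 and 7277 against 6813, 20932 and 13063.

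By gene lists, biosynthetic genes were shifted up together. Of 23 genes of Myc and ribosome biogenesis, 23 were higher in WT, 23 in LApc and 22 in LApcL, with median log2 ratios of 1.19, 0.61 and 0.39. Past the fold, this was 14, 0 and 0 genes. Ncl (nucleolin) stood at 854 against 348 CPM in WT, 1129 against 627 in LApc and 1283 against 793 in LApcL, and Nop56, a core protein of box C/D particles, at 164 against 51.8, 213 against 114 and 250 against 142. Myc itself differed little, at 36.4 against 31.0, 56.8 against 46.6 and 62.3 against 64.5 CPM. The list's medians fell in the order WT, LApc, LApcL, and its marker-zero sum rose in that order, at 2143, 3222 and 3664 CPM, whereas its mitotic-marker sum was 4314, 4974 and 5146.

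Nucleotide synthesis had 20 genes, of which 20, 20 and 19 were higher, with medians of 1.21, 0.84 and 0.61. Past the fold were 12, 9 and 3. Cad, the enzyme that opens pyrimidine synthesis, stood at 13.1 against 4.18 CPM in WT, 21.5 against 7.59 in LApc and 20.8 against 7.46 in LApcL, a nearly even ratio over the genotypes. Shmt1, a serine hydroxymethyltransferase of the folate cycle, stood at 47.6 against 14.1, 47.4 against 10.8 and 48.8 against 33.3 CPM, so that its mitotic-marker level was even and its marker-zero level was highest in LApcL.

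Of 19 genes of chromatin and histone chaperones, 19, 16 and 17 were higher, with medians of 1.06, 0.57 and 0.62 and sums of 7169 against 2527, 10310 against 6489 and 11171 against 7294 CPM. Ptma (prothymosin alpha) had the largest share of these sums, at 4143 against 1258, 5408 against 2846 and 5882 against 3582 CPM. Ssrp1, a subunit of the FACT histone chaperone, stood at 132 against 43.0, 233 against 113 and 228 against 119 CPM. Nap1l1, another histone chaperone, was an exception. It stood at 110 against 22.4 CPM in WT and 353 against 219 in LApcL, but at 408 against 615 in LApc, where it was lower in mitotic-marker cells.

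RNA splicing (18 genes) had medians of 0.99, 0.50 and 0.50, with 18, 17 and 18 genes higher, and chaperonin and nuclear transport (15 genes) medians of 0.76, 0.34 and 0.29. Hnrnpab, which binds nascent RNA, stood at 461 against 188 CPM in WT, 811 against 478 in LApc and 887 against 542 in LApcL. Ran itself stood at 623 against 207, 820 against 395 and 800 against 405 CPM. Of 80 ribosomal protein genes, 73, 63 and 60 were higher, but none passed the fold, with medians of 0.17, 0.13 and 0.06. The medians of oxidative phosphorylation were -0.06, 0.17 and 0.12, and those of the 16 glycolysis genes -0.41, -0.33 and -0.18, with 15, 14 and 13 of them lower.

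**Figure D3:**
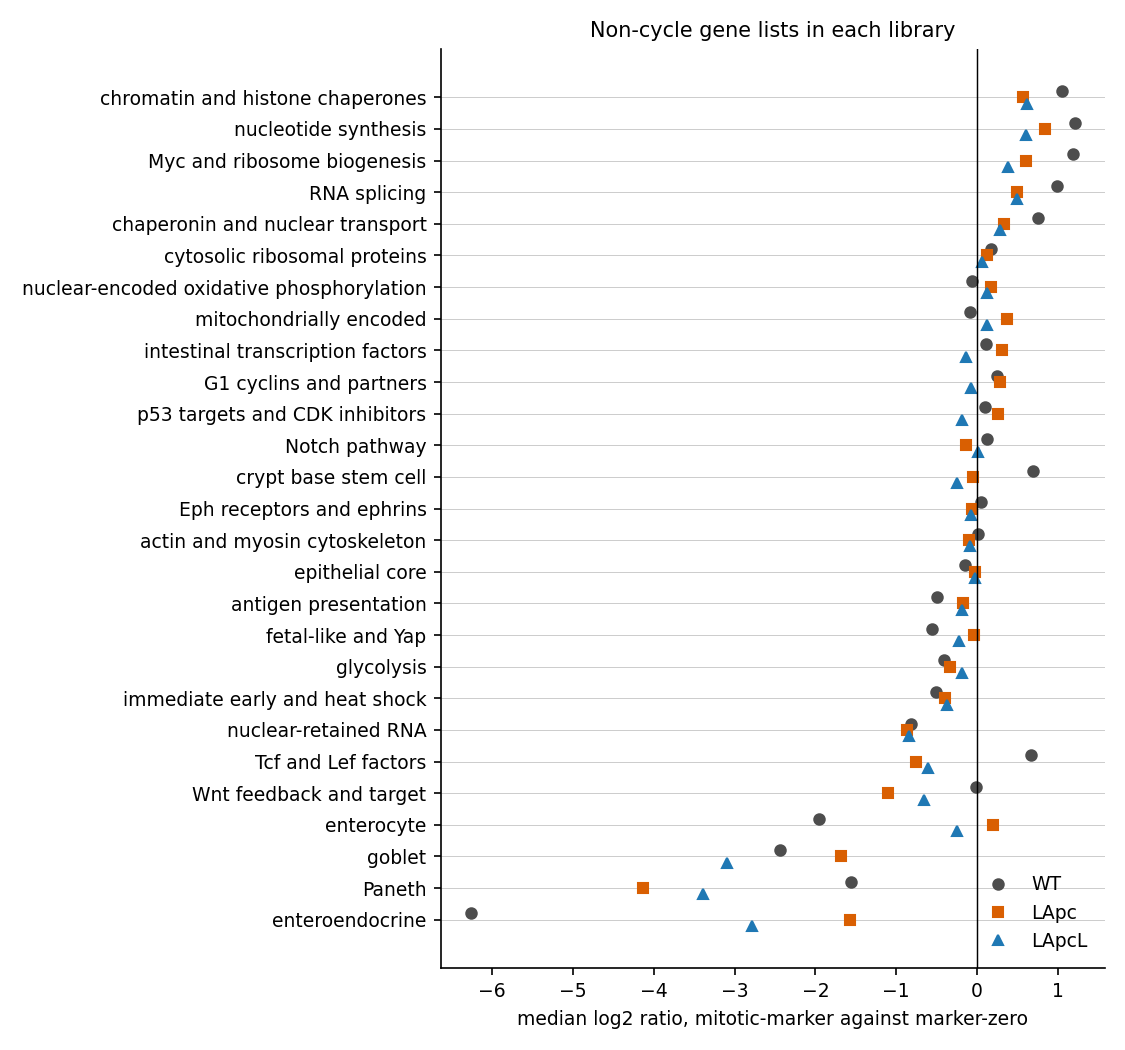
Median log2 ratio of (CPM + 1), mitotic-marker against marker-zero cells, of 27 lists of non-cycle genes in WT, LApc and LApcL. Biosynthetic lists lie to the right of 0 in each library, furthest in WT (1.19 for Myc and ribosome biogenesis, against 0.61 and 0.39), and goblet and Paneth lists lie to the left.

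Nuclear and early-response RNAs were lower in mitotic-marker cells of each library. Malat1, a long RNA of nuclear speckles, stood at 3879 against 6813 CPM in WT, 9354 against 20932 in LApc and 7277 against 13063 in LApcL, that is, at 0.569, 0.447 and 0.557 of the marker-zero level. Neat1, the scaffold RNA of paraspeckles, stood at 362 against 761, 306 against 557 and 278 against 528 CPM. The antiproliferative genes Btg1 and Btg2 were also lower in all 3 libraries. Btg1 stood at 201 against 381, 219 against 428 and 228 against 396 CPM, and Btg2, a p53 target, at 204 against 382, 250 against 428 and 149 against 276. Of 13 immediate early and heat shock genes, 12, 11 and 13 were lower, with medians of -0.51, -0.40 and -0.37. Atf3, a stress-induced factor, stood at 398 against 944, 760 against 1286 and 553 against 742 CPM. Mitochondrial transcripts, which bear on RNA quality, made up a median of 9.73% against 10.7% of UMIs in WT, 6.09% against 5.38% in LApc and 6.26% against 6.22% in LApcL.

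Enterocyte transcripts were lower in mitotic-marker than in marker-zero cells of WT. All 18 enterocyte genes were lower, 17 past the fold, with a median of -1.96 and sums of 8707 against 27244 CPM. Fabp1, a fatty acid binding protein, stood at 2823 against 10342 CPM and Sis (sucrase-isomaltase) at 354 against 1457. Even so, 195 of 206 WT mitotic-marker cells (94.7%) held at least 10 UMIs of the list, close to the 96.8% of marker-zero cells. Per cell the median was 49 UMIs (10th to 90th percentile 11 to 184) against 205 (21 to 612). Cells that held UMIs of another type reached this minimum about as often. Of 30 WT marker-zero cells with at least 10 enteroendocrine UMIs, 27 (90%) also held at least 10 enterocyte UMIs. Their median was 36.5, at a median depth of 23723 UMIs against 44892 in mitotic-marker cells. Of 77 with at least 10 goblet UMIs, 68 (88.3%) did so. Their median was 206, well above that of mitotic-marker cells, at a median depth of 32348 UMIs. The share of 94.7% is therefore not read as enterocyte expression in the mitotic-marker cells. Free RNA was not estimated in these libraries, and its part in the shares of cells given for any list was not tested. The list was close to absent from both Apc genotypes, where a median of 1 and 2 UMIs per mitotic-marker cell was found.

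Summed goblet and enteroendocrine transcripts were lower in mitotic-marker cells of each library. At least 10 goblet UMIs were held by 3 of 206 mitotic-marker cells in WT (1.46%), 4 of 428 in LApc (0.935%) and 12 of 687 in LApcL (1.75%), against 11.1%, 3.79% and 9.28% of marker-zero cells. Tff3, the goblet trefoil peptide, stood at 155 against 750 CPM in WT, 46.7 against 249 in LApc and 90 against 983 in LApcL. Spink4 stood at 171 against 507, 7.71 against 172 and 50.8 against 748 CPM. Goblet sums by marker UMIs in WT were 2198, 2553, 1583, 103 and 45.3 CPM from 0 to at least 16, in LApc 541, 729, 129, 123 and 84.5, and in LApcL 2078, 1006, 245, 229 and 75.7. A few cells carried most of the goblet signal. In WT the 3 cells with at least 10 goblet UMIs held 781 of the 886 UMIs of all mitotic-marker cells (88.1%), 398 of them in 1 cell, and in LApcL 12 cells held 961 of 1232, while in LApc 4 cells held 143 of 474 (30.2%). Among marker-zero cells, 77, 47 and 61 such cells held 94.1%, 86.3% and 97.9% of the goblet UMIs. At least 1 goblet UMI was found in 36.4%, 41.4% and 27.7% of mitotic-marker cells, against 60.0%, 42.1% and 38.5% of marker-zero cells, so nearly equally often in LApc. Enteroendocrine genes summed to 14.1 against 3458 CPM in WT, 7.01 against 84.0 in LApc and 5.09 against 40.0 in LApcL, and 0, 0 and 1 mitotic-marker cells held at least 10 of their UMIs. In WT, 30 of 693 marker-zero cells held 99.6% of the enteroendocrine UMIs of that group.

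Summed Paneth transcripts were lower in mitotic-marker cells of each library. The 7 genes summed to 151 against 326 CPM in WT, 451 against 2443 in LApc and 1429 against 11262 in LApcL. At least 10 Paneth UMIs were held by 4 (1.94%), 34 (7.94%) and 147 (21.4%) mitotic-marker cells, against 3.75%, 17.6% and 41.2% of marker-zero cells. The intervals of the 2 WT shares overlapped (0.532 to 4.90 and 2.47 to 5.45), and at least 1 Paneth UMI was found in more of the WT mitotic-marker cells (37.9% against 29.4%). In LApcL the 147 cells held 7635 of the 9820 Paneth UMIs (77.7%), 2106 of them in 1 cell, and in LApc the 34 cells held 902 of 1929, 410 of them in 1 cell. The median per mitotic-marker cell was 0, 2 and 5 UMIs, against 0, 2 and 8. Lyz1 (lysozyme) stood at 9.71 against 30, 69.9 against 582 and 77.6 against 824 CPM, the defensin gene Defa24 at 4.85 against 72.6, 34.3 against 620 and 534 against 5983, and Mmp7, which activates defensins, at 0.485 against 1.15, 313 against 598 and 649 against 1690. Mmp7 was thus the Paneth gene nearest to its marker-zero level in LApc and LApcL. Defensin genes are near-identical copies, so how reads were divided among them is uncertain. Sums over cells do not tell fewer cells of a type from fewer transcripts per cell. No mitotic-marker cell held at least 10 UMIs of the endothelial, immune, fibroblast or tuft list, and the limit set by 3 counts is a share of 1.46%, 0.701% and 0.437%. At least 1 UMI of the endothelial list was found in 29.1%, 17.1% and 15.1% of mitotic-marker cells, with at most 5 in a cell. In WT most of these were Lyve1, at 37.4 against 48.3 CPM, while the endothelial markers Pecam1 and Cdh5 stood at 0.971 CPM each.

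**Figure D4:**
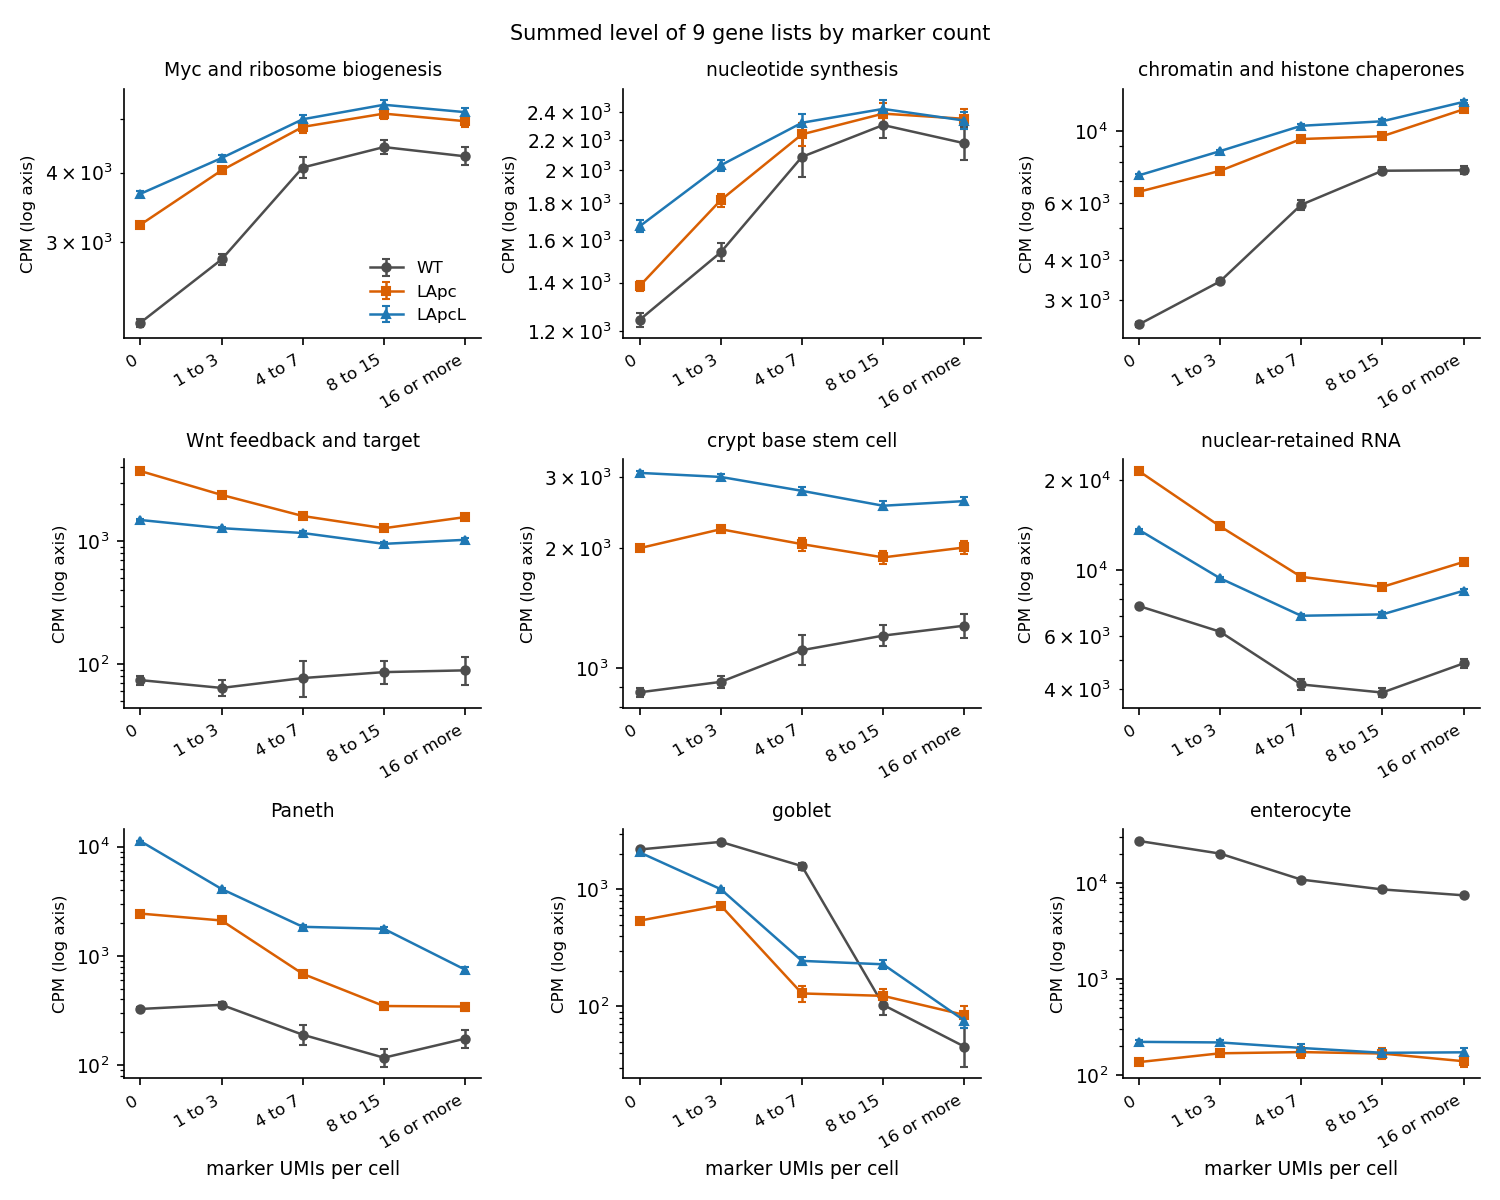
Summed CPM (log axis) of 9 gene lists in cells with 0, 1 to 3, 4 to 7, 8 to 15 and at least 16 marker UMIs in each library, with Poisson intervals. Paneth sums in LApcL went from 11262 to 749 CPM and Wnt feedback sums in LApc from 3736 to 1575, while Myc and ribosome biogenesis sums in WT went from 2143 to 4283.

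Most stem cell genes stood above the marker-zero level in WT. Of 16 crypt base stem cell genes, 12 were higher in WT mitotic-marker cells, 3 past the fold, with a median of 0.70. In LApc 7 of 16 were higher (-0.05) and in LApcL 6 of 15 (-0.25), 0 past the fold in either. Lgr5, the receptor that marks crypt base stem cells, stood at 23.8 against 13.7 CPM in WT, 32.7 against 34.5 in LApc and 85.7 against 109 in LApcL. Smoc2, another marker of these cells, stood at 125 against 56.7, 270 against 237 and 450 against 399 CPM, and Slc12a2, a chloride transporter high in the crypt, at 363 against 201, 359 against 230 and 536 against 770. Olfm4, a stem cell marker of the normal crypt, was at 117 against 70.1 CPM in WT, at 0 against 1.37 in LApc and at 0.146 against 0 in LApcL. At least 10 UMIs of the list were held by 51.5%, 92.1% and 98.4% of mitotic-marker cells and by 26.1%, 86.5% and 98.9% of marker-zero cells. The list's sums, 1207 against 871, 1979 against 1996 and 2649 against 3078 CPM, thus differed more between genotypes than between the groups of cells in LApc and LApcL.

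Wnt feedback and target genes were lower in mitotic-marker cells of both Apc genotypes. Of 13 genes, 13 were lower in LApc, 8 past the fold, with a median of -1.10, and 12 were lower in LApcL, 3 past the fold, with a median of -0.65. In WT 8 of the 13 had enough UMIs to be scored (at least 10 over both groups), 4 higher and 4 lower, and their sums were 85.0 against 72.4 CPM. Notum, a secreted enzyme that inactivates Wnt ligands, stood at 0 against 0.577 CPM in WT, 107 against 504 in LApc and 60.8 against 116 in LApcL. Nkd1, an inhibitor of Dishevelled (chr8:88521354-88594884), stood at 0 against 0.866, 272 against 793 and 160 against 251 CPM. Axin2, a scaffold of the beta-catenin destruction complex, was the nearest to even in LApc and LApcL, at 362 against 463 and 315 against 336 CPM, and stood at 32.0 against 15.6 in WT. The summed list in LApc was 1488 against 3736 CPM and in LApcL 1053 against 1492. Per cell, the median was 10 UMIs against 37 in LApc (10th to 90th percentile 2 to 34.3 against 6 to 69) and 9 against 14 in LApcL (4 to 19 against 5 to 26).

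The Wnt feedback sum was already lower in cells just below the threshold. In LApc the sum was 3736, 2388, 1608, 1279 and 1575 CPM across the 5 bins of marker UMIs, and in LApcL 1492, 1280, 1169, 954 and 1029. The lowest value in both was at 8 to 15 marker UMIs. In LApc a set of 4 genes restricted to that library (Npy, Spock2, Mt3 and Prss56, listed from an earlier description of these data) was also lower, at 162 against 1856 CPM, with at least 10 UMIs in 3.97% of mitotic-marker and 31.4% of marker-zero cells. Leaving out cells with at least 10 UMIs of a secretory list or of the LApc-restricted set, an alternative added after the data were seen, gave medians of -1.28 in LApc and -0.59 in LApcL for the Wnt list.

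**Figure D5:**
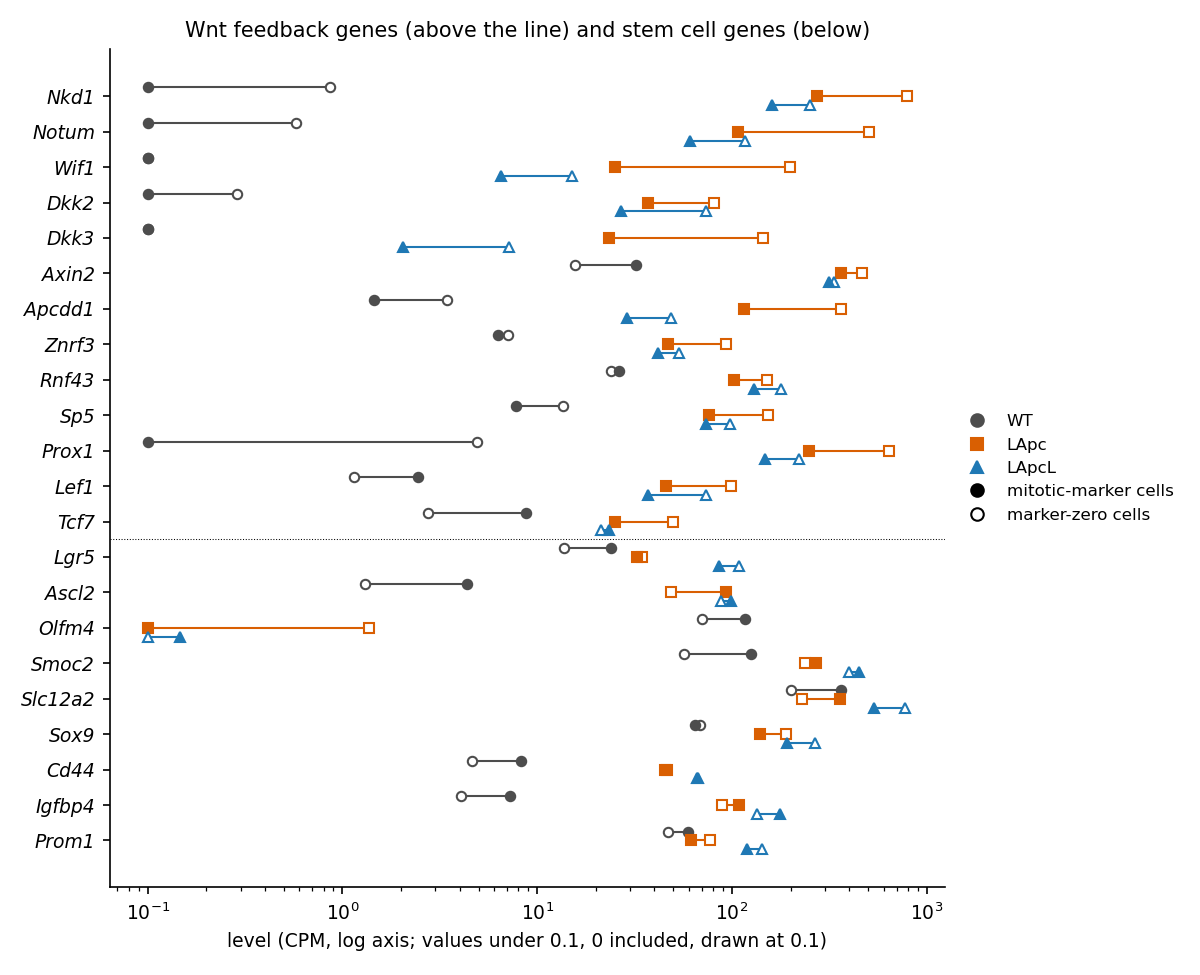
CPM (log axis, values under 0.1 including 0 drawn at 0.1) of 13 Wnt feedback and 9 stem cell genes in mitotic-marker (filled) and marker-zero cells (open) of WT, LApc and LApcL. Notum stood at 107 against 504 CPM in LApc and 60.8 against 116 in LApcL, and Lgr5 at 23.8, 32.7 and 85.7 CPM in mitotic-marker cells.

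Cell cycle inhibitors and G1 cyclins held no common direction. The 16 p53 targets and CDK inhibitors had medians of 0.10, 0.26 and -0.19, and 6 G1 cyclins and partners 0.25, 0.29 and -0.07. Cdkn1a (p21) stood at 180 against 256 CPM in WT, 431 against 361 in LApc and 249 against 349 in LApcL, higher in mitotic-marker cells of LApc alone. Ccnd1 (cyclin D1) stood at 47.1 against 41.8, 367 against 255 and 355 against 379 CPM. Ccnd2 (cyclin D2) stood at 314 against 276, 168 against 268 and 157 against 227, so that its direction in WT was the opposite of that in LApc and LApcL. Cdk6, a kinase partner of the D cyclins, stood at 60.7 against 46.6, 171 against 179 and 265 against 454 CPM.

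Some genes stood apart from the marker-zero level in one Apc genotype and near it, or on its other side, in the other. Fabp5 stood at 70.3 against 99.0 CPM in LApc and 74.5 against 31.7 in LApcL, with 44.2 against 55.3 in WT. Pglyrp1, an antibacterial peptidoglycan binder, stood at 657 against 3198 in LApc and 279 against 280 in LApcL, with 66.5 against 40.4 in WT. Lypd8, which coats flagellated bacteria, stood at 88.6 against 34.5 CPM in LApc, 141 against 159 in LApcL and 146 against 233 in WT, and Reg3g, an antibacterial lectin, at 55.8 against 21.5 in LApc, 262 against 264 in LApcL and 10.7 against 11.3 in WT. In each of these 4 genes the marker-zero levels of LApc and LApcL were further apart than the mitotic-marker levels. They are shown because their ratios were unlike in the 2 libraries, and unlike ratios mean unequal gaps. The sentence on gaps is therefore a description of the choice.

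Within the mitotic-marker cells, those leaning to mitosis were set against those leaning to replication in the same library. This split uses the 28 cycle genes and is a description. Nucks1 was higher in the mitosis-leaning cells by 1.48-fold in WT (1.22 to 1.81), 1.43-fold in LApc and 1.48-fold in LApcL. Slfn9 was lower, at 0.304, 0.140 and 0.306 of the replication-leaning level, as were Dctpp1 (0.684, 0.701 and 0.635), Dtymk (0.631, 0.662 and 0.761) and Ccnd1 (0.527, 0.602 and 0.581). The genes highest in mitotic-marker cells thus leaned to either kind. Nucleotide synthesis as a sum was at 0.908, 0.753 and 0.783, Myc and ribosome biogenesis at 1.03, 0.842 and 0.803, and the Wnt list at 0.971, 1.29 and 1.11. With mitosis-leaning cells alone against marker-zero cells, the Wnt list's median was -1.03 in LApc and -0.59 in LApcL, and that of nucleotide synthesis was 1.16, 0.56 and 0.34.

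The comparison of LApcL with LApc mitotic-marker cells addressed how dividing Apc-mutant cells differ with and without the Lef1 allele, and with 1 library each it compares 2 libraries. At the same fold and minimum level, 23 non-cycle genes (0.756% of 3042) were higher and 21 (0.690%) lower in LApcL, against 99 (2.92%) and 150 (4.43%) of 3387 in marker-zero cells. Lef1 stood at 2.43 (WT), 46.0 (LApc) and 37.0 CPM (LApcL), and Apc at 25.7, 88.1 and 83.4, both counted from 3′ ends that were not used here as a check of the deletions. The median log2 ratio was -0.13 for the 14 mitosis genes and 0.03 for the 14 replication genes. Both groups were chosen by the same minimum of marker UMIs, so like levels of cycle genes are in part set by the rule. Myc and ribosome biogenesis (0.00) and nucleotide synthesis (-0.01) were near even as well. Of 59 histone genes, 51 were higher in LApcL, 10 past the fold, with a median of 0.63.

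Most stem cell genes stood somewhat higher in LApcL than LApc mitotic-marker cells. Of 15 genes, 13 were higher, 1 of them (Lgr5) past the fold, with a median of 0.55 against 0.02 for all genes, and sums of 2649 against 1979 CPM (1.34-fold, 1.30 to 1.37). Lgr5, at 85.7 against 32.7 CPM, was 2.62-fold higher (2.18 to 3.17), and Smoc2 and Slc12a2, at 450 against 270 and 536 against 359 CPM, were higher by less than the fold. Ascl2, a Wnt-driven stem cell factor, was near even at 99.4 against 93.5 CPM. In marker-zero cells Lgr5 stood at 109 against 34.5 CPM, so that its higher level in LApcL was shared by both groups of cells.

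Wnt feedback genes went the other way. Of 13, 12 were lower in LApcL, 3 past the fold, with a median of -0.46 and sums of 1053 against 1488 CPM (0.708-fold). Apcdd1, an inhibitor at the cell surface, stood at 28.8 against 115 CPM, Wif1, which binds Wnt ligands outside the cell, at 6.55 against 25, and Dkk3, a Dickkopf family member, at 2.04 against 23.4. Rnf43, the ubiquitin ligase that removes Frizzled receptors, was the exception, at 129 against 102. Prox1, a homeobox factor of Apc-mutant cells, stood at 147 against 249. The marker-zero cells had the same order with wider gaps, for example 251 against 793 CPM for Nkd1, which was 160 against 272 in mitotic-marker cells.

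Of 16 p53 targets and CDK inhibitors, 15 were lower in LApcL, with a median of -0.59 and sums of 1251 against 1828 CPM (0.684-fold). Cdkn1a stood at 249 against 431 CPM, Btg2 at 149 against 250, Cdkn2a (p16 and p19) at 13.2 against 34.3 and Gdf15, a secreted stress factor, at 108 against 167. In marker-zero cells Cdkn1a was near even, at 349 against 361 CPM. Cdkn1b (p27) was the exception, at 60.4 against 55.1. Immediate early genes were lower in 12 of 13, by a smaller median of -0.24.

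Single genes differed by more between the Apc genotypes. Pigr, the receptor that carries immunoglobulin A across the epithelium, stood at 223 CPM in LApcL, 16.8 in LApc and 329 in WT, a 13.2-fold gap between the Apc genotypes. Reg3g stood at 262 against 55.8, Ly6g at 72.9 against 18.9 and the Paneth genes as a sum at 1429 against 451, with 7 of 7 higher, 5 past the fold, although single cells carried much of both sums. Defa24 was at 534 against 34.3. Lower in LApcL were Ptn (pleiotrophin), at 1.46 against 160, Npy (neuropeptide Y), at 0 against 59.6, Mt3 (a metallothionein), at 1.75 against 54.2, and Gsta3 (a glutathione transferase), at 13.1 against 72.9. In LApc marker-zero cells Ptn stood at 1111 and Npy at 694 CPM, so both genes were lower in the mitotic-marker cells of that library. With cells of at least 10 secretory or LApc-restricted UMIs left out, the log2 ratios of LApcL to LApc were 3.63 for Pigr, 1.97 for Reg3g, 1.82 for Ly6g and 1.78 for Defa24, and -5.06 for Ptn and -2.57 for Gsta3. The median of the Paneth list then went from 3.33 to 0.56, and Defa22, a defensin gene outside that list, turned from 1.66 to -0.11.

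LApc against WT mitotic-marker cells differed far more. Of 3208 genes, 396 (12.3%) were higher and 260 (8.10%) lower, with a median over all genes of 0.26, and with scaling by the median of ratios the split turned to 281 higher and 370 lower. LApcL, set against the same WT cells, had 472 (14.5%) and 276 (8.47%) of 3260, with a median of 0.30. The 2 comparisons share the WT library. Marker-zero cells of LApc and WT differed in 938 (26.5%) and 504 (14.2%) of 3546 genes. The mitosis list had a median of 0.57 and the replication list of 1.16 in LApc, both above the median of all genes, and histone genes had a median of -0.75.

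All 13 Wnt feedback genes were past the fold in LApc mitotic-marker cells, with a median of 4.61 and sums of 1488 against 85.0 CPM (17.5-fold). Nkd1, Notum and Prox1 had 0 UMIs in WT mitotic-marker cells, and against a floor of 3 counts over the group they were at least 187-fold, 73.8-fold and 171-fold higher in LApc. Axin2 stood at 362 against 32.0 CPM. Fetal-like genes, known to return in injured epithelium, had a median of 3.95, with 10 of 12 higher and 2 lower past the fold and a sum only 1.75-fold higher (1972 against 1128 CPM). The 2 lower were the growth factor genes Areg, at 112 CPM in LApc against 967 in WT, and Ereg, at 8.18 against 21.8. Among the higher ones were Ly6a at 199 CPM in LApc and 508 in LApcL against 0.971 in WT, and Anxa1 (annexin A1) at 309 and 296 against 1.94. Vim (vimentin), an intermediate filament protein, was at 542 and 241 CPM against 0.

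Genes of the absorptive epithelium were the reverse. Enterocyte genes had a median of -4.44 in LApc, with 16 of 17 past the fold and sums of 159 against 8706 CPM. The WT sum holds the UMIs whose presence in most mitotic-marker cells was not read above as enterocyte expression. The part of free RNA in this gap was not tested. Cps1, which makes carbamoyl phosphate in mitochondria, was higher in mitotic-marker than in marker-zero cells of WT, at 370 against 175 CPM (2.11-fold), and it stood at 0 and 0.146 in the mitotic-marker cells of LApc and LApcL. Rbp7, a retinol binding protein, followed the same pattern, at 54.4 against 7.65 CPM in WT (7.11-fold) and 0 in both Apc genotypes. Gata4, the factor of proximal small intestine, stood at 47.1 against 43.4 CPM in WT and at 0 in mitotic-marker cells of LApc and LApcL, whereas Gata6 was near even, at 79.1, 86.4 and 77.1 CPM.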

How the data were processed

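Small intestinal organoid cells of WT, LApc and LApcL mice were profiled with 10x Genomics 3′ libraries, 1 per genotype. The deposited matrices hold raw UMI counts of 32285 genes, made by the authors with Cell Ranger on mm10 (GRCm38). The labels give version 2.1.1 and the file headers give 6.0.1. No row was a total or a blank, and no other value column was present.

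With Python 3.11.15, numpy 2.4.6, scipy 1.17.1, pandas 2.3.3 and scanpy 1.11.5 (Scrublet scores), barcodes shared between libraries, under 10000 UMIs or over 20% mitochondrial UMIs were left out, and each cell was thinned to 10000 UMIs (seed 1). Counts were summed per library and group and given as CPM with exact 95% Poisson intervals, folds with conditional binomial intervals, and shares with Clopper-Pearson intervals. The log2 ratio is that of CPM + 1. The cycle lists and 6 sex-linked genes were kept out of the counts of non-cycle genes. A list's members were scored where both groups together held at least 10 UMIs. The members and the 37 lists were chosen with earlier results of these data known.

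Named genes are members of the lists and, among non-cycle genes of at least 50 CPM, the 12 with the highest smallest and the 12 with the lowest largest ratio over the 3 libraries, the 8 highest and 8 lowest of each library, the 10 highest and 10 lowest between genotypes, and the 6 highest and 6 lowest differences of ratio between LApcL and LApc. The values of 1 gene named by this rule are not reported here. In all, 17 alternatives were fixed and 2 added after seeing the data. The scripts were tested on simulated counts. Gene positions are from GENCODE vM21 (mm10) and promoter windows from RefSeq.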

Additional observations from a re-analysis of the deposited data

How the results depend on the processing

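Counts of genes depended most on the minimum level. With a minimum of 200 CPM, 33 genes were higher and 73 lower in mitotic-marker than marker-zero cells of WT, 15 and 51 in LApc, and 3 and 17 in LApcL. Between genotypes there were then 8 higher and 4 lower in LApcL than LApc, and 79 and 61 in LApc than WT. With no minimum the counts were 865 and 1306, 365 and 1344, 197 and 475, 281 and 331, and 2464 and 1244, in the same order. With a pseudocount of 10 CPM, 16 genes were higher in LApcL mitotic-marker cells.

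The choice of markers moved the smaller counts. With Mki67 and Top2a alone, 17 genes were higher in LApcL, and the log2 ratio of shares of LApc to WT was 0.50. With Ube2c and Birc5 alone that ratio was -0.01, with 99, 41 and 8 genes higher in WT, LApc and LApcL and 37 lower in LApcL, and Spink4 turned to -0.29 between LApcL and LApc. A mitochondrial limit of 10% gave a ratio of shares of -0.19.

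Leaving out cells with at least 10 enterocyte UMIs left 47 eligible WT cells, 11 of them mitotic-marker and 22 marker-zero. The ratio of shares of LApc to WT was then -0.24, with 378 genes higher and 793 lower in WT and 674 higher in LApc than WT. In that setting Cck (3.33), Ctrb1 (0.86), Gsta1 (1.29), Rbp2 (1.79) and Sis (1.75) turned positive in WT, where of these 5 only Gsta1 had a counting interval that left out 0 (0.57 to 2.03).

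Leaving out cells with at least 10 goblet, Paneth, enteroendocrine or LApc-restricted UMIs, added after seeing the data, gave log2 ratios of shares of 0.56 (LApcL to LApc) and 0.54 (LApc to WT), with 121 genes lower in LApc and 31 in LApcL. In WT Cck turned to 0.79, Chgb to 1.30 and Spink4 to 0.13, in LApc Tff3 to 0.26, and in LApcL Gm14851 to 0.25. Defa22 turned to -0.11 between LApcL and LApc, and the Paneth list to -0.25 between LApc and WT. The goblet medians were then -0.23, -0.01 and -0.25.

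Tff3 between LApc and WT turned from -1.71 to 1.18 with at least 8 marker UMIs, 0.76 with the mitochondrial limit of 10%, 1.32 with at least 20000 UMIs, 1.19 without high doublet scores and 2.15 without the secretory and LApc-restricted cells. The endothelial list between LApc and WT turned to -1.33 with shared barcodes kept. The cause was not tested for any of these.

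Of 2888 list medians under the alternatives, 2632 stayed within counting error or within 0.1, 254 moved further, and 2 that had been past the fold changed sign. Of 5501 values of named genes, 4327, 1157 and 17 did so. Counting those of any size, 129 list medians and 138 values of named genes changed sign. Over the alternatives the median of Myc and ribosome biogenesis was 0.73 to 1.29 in WT, 0.52 to 0.68 in LApc and 0.22 to 0.47 in LApcL, and that of the Wnt list -1.48 to -0.94 in LApc and -0.79 to -0.51 in LApcL. Between LApcL and LApc, stem cell genes ranged from 0.39 to 0.59 and p53 targets from -0.71 to -0.47.

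No paired analysis was possible because each genotype had 1 library, so leaving out a library was not an option. The intervals leave out differences between cultures and mice, 3′ counts do not tell isoforms, and genes under about 3 UMIs in a group are at the limit of what these sums detect.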

Other observations

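Genes of cell shape and position moved little with the mitotic markers. Eph receptors and ephrins had median log2 ratios of 0.05, -0.06 and -0.07 between mitotic-marker and marker-zero cells of WT, LApc and LApcL. Within that list Efna1, an ephrin ligand, stood at 32.0 against 94.1 CPM in WT, 14.5 against 26.7 in LApc and 21.4 against 37.6 in LApcL, lower in each library. The actin and myosin list had medians of 0.01, -0.10 and -0.08, and the epithelial core list -0.15, -0.02 and -0.02. Epcam, the epithelial adhesion molecule, was detected in both groups of cells in each library. Notch pathway genes had medians of 0.12, -0.13 and 0.01. Hes1, a Notch target that holds cells off the secretory fate, stood at 291 against 317 CPM in WT, 592 against 1004 in LApc and 485 against 496 in LApcL, so it was lower in LApc mitotic-marker cells.

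Transcription factors of the intestine had medians of 0.11, 0.31 and -0.14. Hnf4a stood at 123 against 86.6 CPM in WT, 73.1 against 37.4 in LApc and 74.5 against 71.4 in LApcL, and Cdx2, which sets intestinal identity, at 112 against 100, 93.2 against 56.0 and 156 against 172. In LApc both were higher in mitotic-marker cells. Antigen presentation genes had medians of -0.49, -0.17 and -0.19, with H2-K1 at 303 against 426, 234 against 260 and 238 against 228 CPM.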
